A study of Mus musculus with 52 samples.

Results

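Type I interferon-induced antiviral genes are described here as a set of 39 genes, chosen by symbol from the deposited gene table of 57010 genes. All 39 were found in the table and all 39 passed the filter on low counts in each of the 4 materials. The members fall into 9 roles, among them the IFIT family (4 genes), the OAS family (6), the ISG15 system (3) and RNA and DNA sensors (5). Another (4) holds the dynamin-like GTPases Mx1 and Mx2 with the radical SAM enzyme Rsad2 and the nucleotide kinase Cmpk2. The others are transcription factors (3), nucleic acid enzymes (4), membrane-associated effectors (2) and other induced genes (8). Near-identical copies (Ifit3 with Ifit3b, Oas1a with Oas1g) can share reads, so the split between the copies is uncertain.

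All mice were hCD40tg animals, which carry human CD40, and all bore tumors of MC38-CEACAM5, a mouse colon carcinoma line made to express the human tumor antigen CEACAM5. Treatment was with vehicle, with CD40 mAb (which binds CD40, an activating receptor of B cells, dendritic cells and macrophages) or ATOR-4066, whose 2 specificities are CD40 and CEACAM5. The labels give no strain, age, sex, dose or time after treatment, and they do not name the promoter of the transgene. RNA came from blood (5 vehicle, 5 CD40 mAb and 4 ATOR-4066 libraries), lymph node (4, 4 and 5), whole tumor (4, 5 and 4) and, sorted from tumors, CD45+Ly6G- cells (4, 3 and 3). Libraries of blood, lymph node and tumor with the same number in a treatment came from one animal.

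Of the 52 libraries, 50 were used. The lymph node library of vehicle animal 3 had a summed level of the 10 B cell markers of 20.7 CPM, where the other vehicle lymph nodes had 2831 to 4641 CPM. The tumor library of ATOR-4066 animal 3 had 3462 CPM of the same markers, against 16.9 to 64.8 CPM in the other ATOR-4066 tumors, so both went against their labelled tissue and were left out. The sorted cells had 1184 to 1631 CPM of Ptprc, which encodes CD45, against 107 to 589 CPM in whole tumor. Total counts per library, with M for mega, ranged from 33.5 to 44.1 M in blood, 46.3 to 138.5 M in lymph node, 47.4 to 64.2 M in tumor and 30.2 to 47.4 M in sorted cells. In blood, haemoglobin genes took 69.8 to 88.2% of the counts. Levels are counts-per-million values (CPM) of the library size after TMM scaling, a factor that lines up the bulk of the genes between libraries, so the CPM of haemoglobin-rich blood can sum to more than the scale's name says. A change is a difference on the log2 scale from edgeR, given with its standard error (SE), and calls use an adjusted p under 0.05 over all genes tested in that comparison.

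Type I interferons (interferon alpha and beta) bind the receptor made of IFNAR1 and IFNAR2, and the kinases JAK1 and TYK2 then pass the signal on. STAT2 joins IRF9 in a complex that binds a repeated GAAA element, the interferon-stimulated response element, in front of antiviral genes. The induced proteins sense, cut, modify or trap viral nucleic acids, and some of them, such as USP18, damp the signal. In tumors the same program is known from dendritic cells and macrophages that sense nucleic acids. In bulk samples, fewer cells of a type and less RNA per cell cannot be told apart.

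The promoters of 4 members are shown because each carries the repeat and belongs to a gene followed in every material below. The letters GAAA, then any 2 bases, then GAAA again were searched on both strands, overlapping matches counted, in windows of 250 bases before to 50 bases after the RefSeq start site. A window was given for 30 of the 39 members, and 16 of the 30 genes (53.3%) held a match, against 1079 of all 27025 genes with a window (3.99%). Some genes have more than 1 window. By window, 17 of 38 member windows (44.7%) held a match, against 1131 of all 32851 windows of the same length (3.44%). Each line gives 120 bases, 5′ to 3′ in the direction of the gene, from 170 to 51 bases before the start site (RefSeq, GRCm38.p6), and capitals mark the match. The Isg15 stretch lies on the minus strand at chr4:156200869-156200988, that of Ifit1 on the plus strand at chr19:34640719-34640838, that of Ifit3 on the plus strand at chr19:34583359-34583478, and that of Rsad2 on the minus strand at chr12:26456503-26456622.
Isg15: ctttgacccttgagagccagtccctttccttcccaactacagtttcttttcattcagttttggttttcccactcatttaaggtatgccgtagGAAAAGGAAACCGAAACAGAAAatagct
Ifit1: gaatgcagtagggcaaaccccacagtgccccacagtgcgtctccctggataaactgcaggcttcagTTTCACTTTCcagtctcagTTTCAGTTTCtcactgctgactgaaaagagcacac
Ifit3: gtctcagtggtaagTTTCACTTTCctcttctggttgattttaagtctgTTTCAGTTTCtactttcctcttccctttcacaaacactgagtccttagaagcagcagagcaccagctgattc
Rsad2: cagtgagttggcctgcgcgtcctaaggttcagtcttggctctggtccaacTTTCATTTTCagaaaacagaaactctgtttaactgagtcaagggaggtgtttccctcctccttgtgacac
Isg15 has 3 overlapping matches, starting 78, 72 and 66 bases before the start site. Ifit1 has 2, and Ifit3, which lies in the same chromosome 19 cluster, also has 2. Rsad2 has 1. A match is a description of the letters, not a measured binding site, and the windows of Irf7 and Oasl2, whose levels are given below, hold no such letters.

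**Figure D1:**
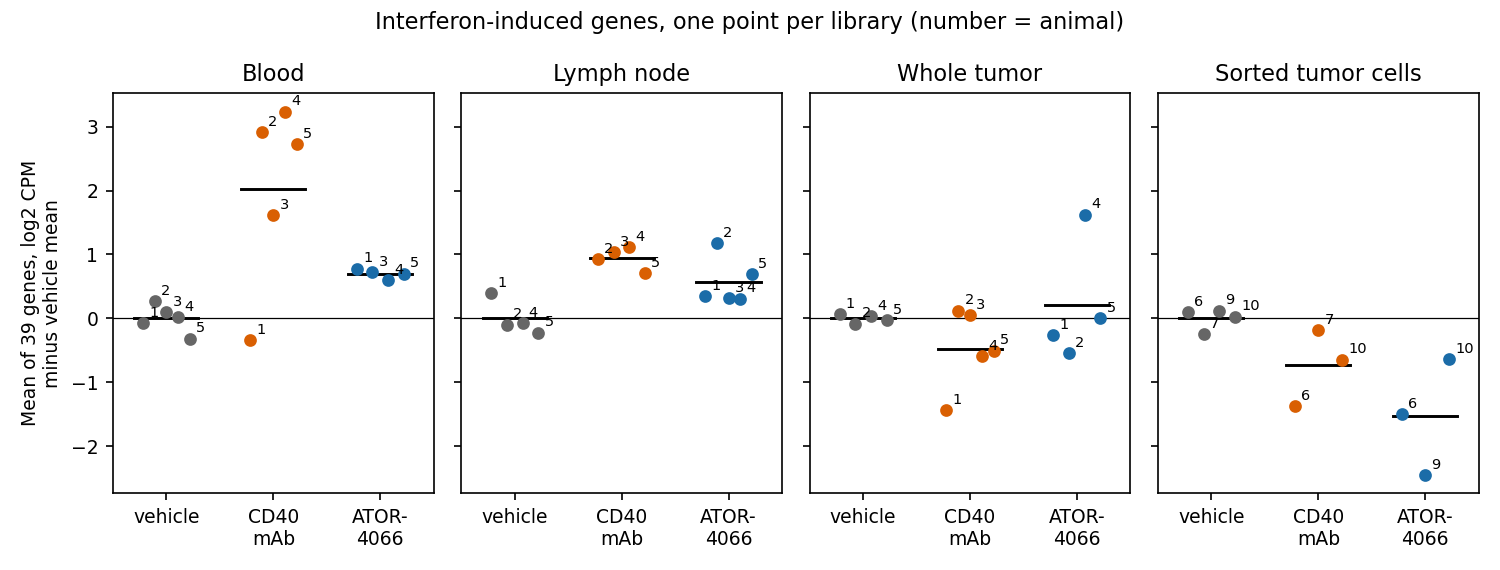
The vertical axis gives, for each library, the mean over the 39 genes of the log2 CPM minus the vehicle mean of that material, with 1 point per library, the animal number beside it and a bar at the group mean. In blood, 4 of 5 CD40 mAb libraries lie between 1.61 and 3.23 and animal 1 at -0.34, and in the sorted cells every ATOR-4066 library lies below every vehicle library.

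The resting level of the members differed between materials and was compared per kilobase of the exon union of each gene in vehicle libraries. In sorted tumor cells Ifitm3, a membrane protein that blocks virus fusion, stood first with 1312 ± 107.5 CPM per kb (SD, n = 4), followed by Ifi27l2a with 1051 ± 237, and these 2 overlapped between libraries. Whole tumor had Ifitm3 first again with 937 ± 81.4 CPM per kb (n = 4), above Bst2 and Ifi27l2a, which overlapped. Lymph node had Ifi27l2a first with 554 ± 133 CPM per kb (n = 4). Blood stood apart in its order: Isg20, an RNA exonuclease, came first with 267 ± 56.2 CPM per kb (n = 5), followed by Rsad2 with 108 ± 24.0 and Isg15 with 80.4 ± 27.4, while Mx2 and Ifi44 were last with 0.160 and 0.0734 CPM per kb. The ranges of Isg20 and Rsad2 in blood did not overlap, and those of Rsad2 and Isg15 did.

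In blood, CD40 mAb raised most of the set. Of the 39 members, 36 were called higher and 0 lower against vehicle, where 22.2% of all genes tested were called higher. The members' median change was 2.34 on the log2 scale and that of all genes tested was -0.05. The rise was carried by 4 of the 5 animals: 39, 39, 39 and 37 members lay above every vehicle library in animals 2, 4, 5 and 3, against 4 members above and 24 below in animal 1. In all 5 CD40 mAb libraries at once, 4 members lay above every vehicle library. Shares of all genes are not given for these counts, so they have no baseline here.

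The ISG15 system rose most. Isg15 levels with vehicle were 55.05, 77.7, 87.1, 43.9 and 40.2 CPM, those with CD40 mAb 122, 4247, 900.2, 6461 and 2813, and those with ATOR-4066 192, 128, 96.4 and 84.2. Isg15 encodes a ubiquitin-like protein that is joined to other proteins, and all 5 CD40 mAb libraries lay above all vehicle libraries. It rose by 5.58 (SE 0.80, adjusted p = 0.000138), a 47.9-fold change. With vehicle Usp18 was at 2.51, 3.83, 3.31, 2.75 and 1.39 CPM, with CD40 mAb at 2.52, 203, 34.2, 310.2 and 99.3 and with ATOR-4066 at 5.23, 4.996, 4.26 and 4.35. Usp18, the protease that takes ISG15 off again, rose by 5.56 (SE 0.93, adjusted p = 0.000598), with animal 1 inside the vehicle range. Herc6, a ligase that attaches ISG15 in mice, rose by 4.005 (SE 0.64, adjusted p = 0.00042).

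The 3 transcription factors were called higher, by very different amounts. Irf7 stood at 93.97, 135, 136, 78.5 and 58.2 CPM in the vehicle, 146, 2696, 743, 2928 and 2619 in the CD40 mAb and 247, 207, 172 and 169 in the ATOR-4066 libraries. Irf7, which drives interferon alpha genes, rose by 4.19 (SE 0.62, adjusted p = 0.000149), and all 5 treated libraries lay above the vehicle range. Stat2 levels with vehicle were 8.14, 7.25, 8.72, 9.48 and 9.26 CPM, those with CD40 mAb 6.66, 14.9, 12.9, 18.9 and 13.5, and those with ATOR-4066 9.35, 10.5, 10.5 and 12.5. Stat2, part of the complex that reads the interferon signal, rose by 0.63 (SE 0.19, adjusted p = 0.0191), with animal 1 below every vehicle library. Irf9, its partner, rose by 0.999 (SE 0.25, adjusted p = 0.00553).

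All 4 IFIT genes, which encode proteins that bind foreign RNA ends, were called higher, by 1.24 to 4.15. With vehicle Ifit1 was at 10.98, 15.8, 16.4, 10.2 and 6.76 CPM, with CD40 mAb at 15.6, 311, 86, 351 and 306 and with ATOR-4066 at 28.1, 18.8, 17.1 and 15.7. Ifit1 rose by 4.15 (SE 0.65, adjusted p = 0.00028), and animal 1 was inside the vehicle range. Ifit3 stood at 4.18, 5.49, 3.38, 3.25 and 2.70 CPM in the vehicle, 1.34, 37.8, 12.9, 56.1 and 30.9 in the CD40 mAb and 7.54, 8.02, 6.46 and 9.60 in the ATOR-4066 libraries. Ifit3 rose by 2.86 (SE 0.65, adjusted p = 0.00485), with animal 1 below every vehicle library. All 6 genes of the OAS family, whose active enzymes make the oligoadenylate messenger for RNase L and which includes the inactive Oasl1, were called higher, by 1.79 to 3.87. Oasl2 levels with vehicle were 19.01, 29.7, 31.4, 26.04 and 13.8 CPM, those with CD40 mAb 31.4, 443, 188, 489.8 and 597, and those with ATOR-4066 71.8, 52.2, 29.8 and 34.7. Oasl2 rose by 3.87 (SE 0.60, adjusted p = 0.000239), and animal 1 equalled the top of the vehicle range to 3 digits.

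Mx1 and Rsad2 parted within 1 role. With vehicle Rsad2 was at 428, 533, 610.5, 345 and 422 CPM, with CD40 mAb at 899, 11550, 5251, 12390 and 8732 and with ATOR-4066 at 1335, 692, 467 and 519.6. Rsad2, or viperin, makes a chain-terminating nucleotide, and it rose by 4.05 (SE 0.57, adjusted p = 0.000111), with all 5 treated libraries above the vehicle range. Mx1 stood at 2.003, 1.57, 2.01, 1.79 and 1.996 CPM in the vehicle, 0.639, 2.12, 1.95, 5.21 and 2.67 in the CD40 mAb and 2.39, 3.53, 3.29 and 3.41 in the ATOR-4066 libraries. Mx1, a GTPase that traps viral ribonucleoproteins, changed by 0.33 (SE 0.34, adjusted p = 0.488) and was not called, with treated libraries on both sides of the vehicle range. Cmpk2, a nucleotide kinase encoded beside Rsad2 on chromosome 12, rose by 3.82 (SE 0.68, adjusted p = 0.000973), and Mx2 rose by 1.70 (SE 0.51, adjusted p = 0.0186).

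All 5 sensors were called higher, by 0.91 to 2.41. Zbp1 levels with vehicle were 4.67, 7.45, 4.76, 5.76 and 4.59 CPM, those with CD40 mAb 3.59, 25.6, 12.9, 31.5 and 29.9, and those with ATOR-4066 7.91, 8.21, 7.12 and 10.4. Zbp1, which senses Z-form nucleic acids, rose by 1.92 (SE 0.43, adjusted p = 0.00374), with animal 1 below the vehicle range. Both membrane-associated effectors were called. With vehicle Ifitm3 was at 21.98, 29.6, 20.5, 25.3 and 17.5 CPM, with CD40 mAb at 13.2, 405, 91.1, 430 and 200.4 and with ATOR-4066 at 27.6, 31.4, 24.9 and 27.4. Ifitm3 rose by 3.31 (SE 0.64, adjusted p = 0.0013), again with animal 1 lowest. Bst2 stood at 3.07, 4.09, 3.02, 2.62 and 2.90 CPM in the vehicle, 3.10, 52, 8.45, 66.2 and 28.6 in the CD40 mAb and 3.81, 4.03, 3.62 and 4.54 in the ATOR-4066 libraries. Bst2, or tetherin, which holds budding virus at the cell surface, rose by 3.32 (SE 0.63, adjusted p = 0.00158), with 4 treated libraries above all the vehicle ones.

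Of the 4 nucleic acid enzymes 3 were called higher, with Isg20 at 3.09 and Adar, an RNA editing enzyme, at 0.93, and the DNA exonuclease Trex1 changed by 0.54 (SE 0.23, adjusted p = 0.085) and was not called. Of the 8 other induced genes 7 were called. Ifi44 rose by 5.25 (SE 0.87, adjusted p = 0.000649), from a vehicle mean of 0.450 ± 0.218 CPM (SD, n = 5). Trim30a levels with vehicle were 14.2, 14.7, 13.7, 14.04 and 13.8 CPM, those with CD40 mAb 11.1, 43.5, 25.03, 41.9 and 40.4, and those with ATOR-4066 17.1, 20.1, 20.5 and 22.1. Trim30a rose by 1.20 (SE 0.26, adjusted p = 0.0026), with animal 1 below the vehicle range. Slfn5 changed by 0.68 (SE 0.30, adjusted p = 0.0948) and was not called. Without the library of CD40 mAb animal 1, all 39 members were called higher in blood. The share of all genes called in that fit is not given here.

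Other cell markers moved with this result. The erythroid list was called higher for 7 of its 7 genes tested, and its summed level was 304600 to 471300 CPM in vehicle, 847900 to 2664000 in CD40 mAb and 696500 to 1433000 in ATOR-4066 blood. The CD40 mAb animals 4, 2, 5, 3 and 1 had 2664000, 1733000, 1476000, 1376000 and 847900 CPM of these markers, which is also the order of their mean over the members (3.23, 2.91, 2.72, 1.61 and -0.34). ATOR-4066 animal 3 had 1433000 CPM and a mean over the members of 0.73. With haemoglobin genes removed before scaling, 35 members were called higher, and the share of all genes in that fit is not given. Neutrophil markers were called higher for 9 of 9 genes tested (summed level 108 to 226 CPM in vehicle, 216 to 1058 in CD40 mAb and 144 to 363 in ATOR-4066), and B cell markers were called lower for 9 of 10 (356 to 437, 132 to 348 and 284 to 388 CPM). Lists at lower levels also separated CD40 mAb from vehicle blood. Plasmacytoid dendritic cell markers summed to 58.7 to 69.9 CPM in vehicle and 28.9 to 49 CPM in CD40 mAb, and macrophage markers to 35.0 to 45.4 and 21.4 to 34.5 CPM. Natural killer cell markers summed to 28.5 to 41.6 and 46.1 to 64.1 CPM, endothelial markers to 79.2 to 117.7 and 124 to 252 CPM, and proliferation markers to 14.9 to 17.7 and 22.3 to 66.1 CPM. No gene of these 8 lists that is in the table was at 0 in every blood library, and their part in the result was not tested.

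**Figure D2:**
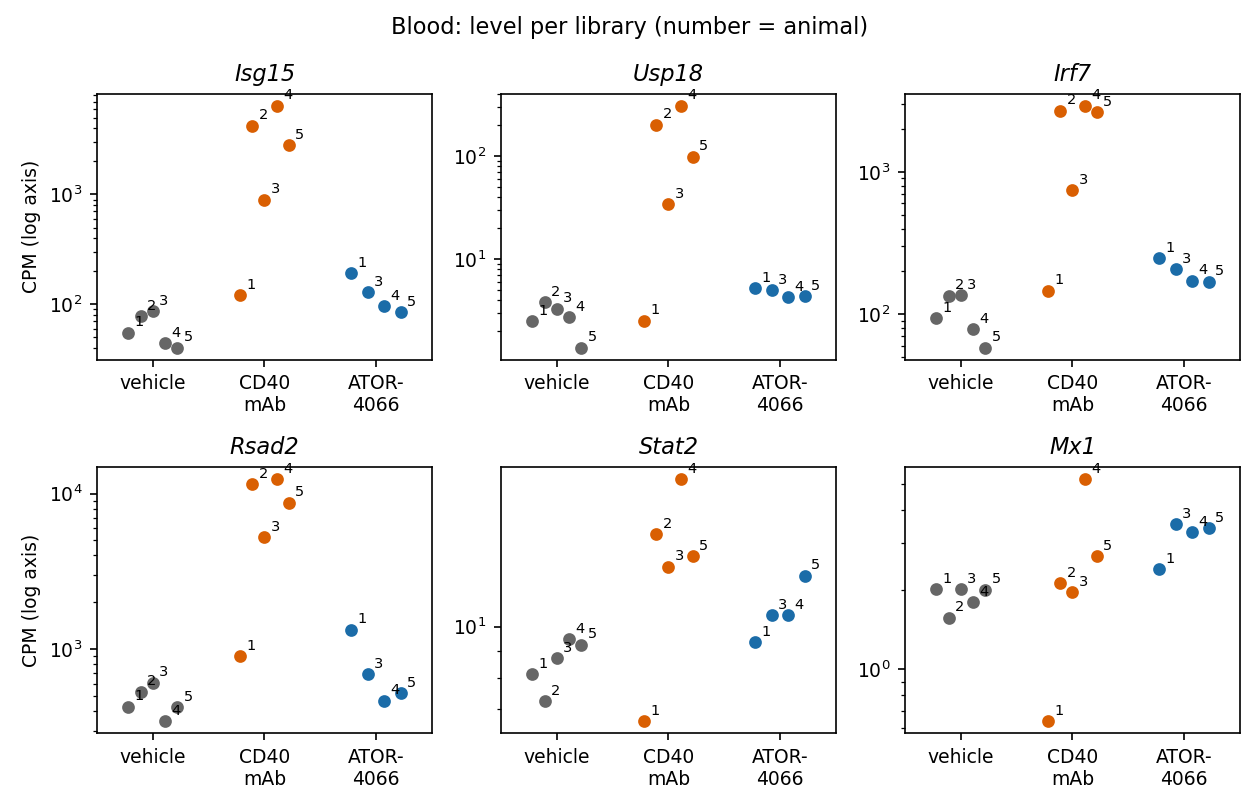
The vertical axis is the level in CPM on a log axis, with 1 point per blood library and the animal number beside it. Isg15, Usp18, Irf7 and Rsad2 of CD40 mAb animals 2 to 5 lie far above vehicle and animal 1 near it, and Mx1 of the CD40 mAb libraries spreads to both sides of the vehicle range.

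In ATOR-4066 blood the estimates were positive, and smaller than with CD40 mAb except for Ifi27l2a and Mx1. None of the 39 was called, where 0.435% of all genes tested were called in either direction. Unadjusted, 4 members had p under 0.05 in edgeR, all upward (15% of all genes tested, 10.4% upward), and DESeq2 called 1 (3.7%). All 39 estimates were positive, with a median of 0.63 (all genes tested, -0.01), and 22 members lay above every vehicle library in all 4 ATOR-4066 libraries, where 5.74% of all genes did so upward. The mean over the members was within 0.60 to 0.78 in the 4 animals. The members of smallest p were Ifi27l2a (2.12, adjusted p = 0.0654), Oas2 (1.05, adjusted p = 0.291), Mx1 (0.74, adjusted p = 0.316) and Ifit2 (0.60, adjusted p = 0.324). With vehicle Ifi27l2a was at 10.2, 15.5, 9.64, 10.03 and 8.65 CPM, with CD40 mAb at 10.01, 34.7, 19.1, 60.2 and 41.8 and with ATOR-4066 at 18.7, 68.2, 68.6 and 32.5. Ifi27l2a had the largest estimate, and animals 3 and 4 of ATOR-4066 were above every CD40 mAb library. Fitted on these 2 groups alone, 26 members were called, where 8.82% of all genes were.

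CD40 mAb and ATOR-4066 were also compared directly in blood. Of the 39 members, 18 were called lower with ATOR-4066 than with CD40 mAb and 0 higher, where 10.8% of all genes tested were called lower, and the median was -1.43 (all genes tested, 0.01). Usp18 fell by 4.78 (SE 0.99, adjusted p = 0.00738), Ifi44 by 4.72, Isg15 by 4.54, Herc6 by 3.47 and Ifit1 by 3.42. Those called include all 3 genes of the ISG15 system, both membrane effectors, and 1 of 4 IFIT genes. Without CD40 mAb animal 1 the count was 34, and without ATOR-4066 animal 4 it was 11. With a block on the replicate number (the replicate block) it was 0, with a smallest adjusted p of 0.0584. The same number names different animals in each treatment, so the block pairs no animals. Shares of all genes called are not given for these fits.

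In lymph node, the CD40 mAb estimates were positive for all 39 members, with a median of 0.93 (all genes tested, -0.02). One member, Irf7, was called higher, where 0.0482% of all genes tested were called higher. Every CD40 mAb library lay above every vehicle library for 33 members, where 8.27% of all genes did so. Unadjusted, 38 members had p under 0.05, against 12% of all genes tested that had such a p upward. DESeq2 called 35 members, where it called 11.9% of all genes, and edgeR fitted on the 2 groups alone called 30, where it called 4.49%.

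Irf7 levels with vehicle were 161, 104, 97.7 and 90.4 CPM, those with CD40 mAb 446, 345, 421 and 274, and those with ATOR-4066 137, 257, 157, 135 and 199.7. Irf7 rose by 1.71 (SE 0.25, adjusted p = 0.0346), with no overlap between CD40 mAb and vehicle and with the ATOR-4066 libraries within the vehicle range or between both. The single call was lost when any 1 of vehicle animals 2, 4 and 5 or CD40 mAb animals 2, 3 and 4 was left out. With vehicle Isg15 was at 35.1, 23.2, 23.7 and 18.02 CPM, with CD40 mAb at 73.3, 87.9, 81.03 and 48.2 and with ATOR-4066 at 44.6, 120.3, 32.1, 40.4 and 49.6. Isg15 had no overlap between CD40 mAb and vehicle, and its change was 1.54 (SE 0.39, adjusted p = 0.072). Usp18 stood at 37.7, 28.9, 29.2 and 30.2 CPM in the vehicle, 57.6, 64.2, 72.6 and 56.9 in the CD40 mAb and 46.4, 73.9, 38.1, 54.7 and 52 in the ATOR-4066 libraries. Usp18 changed by 0.99 (SE 0.17, adjusted p = 0.0512), also with no overlap.

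Ifit1 levels with vehicle were 35.6, 18.8, 18.7 and 15.5 CPM, those with CD40 mAb 40.9, 48.8, 61.6 and 39.4, and those with ATOR-4066 46.5, 82.2, 27.6, 41.5 and 52.6. The highest vehicle library, animal 1, stood near the lowest CD40 mAb one for Ifit1 (1.11 (SE 0.33, adjusted p = 0.0975)). With vehicle Ifit3 was at 59.1, 31.3, 39.3 and 22.9 CPM, with CD40 mAb at 95.5, 101, 120.2 and 70.7 and with ATOR-4066 at 71.5, 109, 44.4, 56.6 and 81.2. Ifit3 changed by 1.34 (SE 0.32, adjusted p = 0.0606), without overlap. Rsad2 stood at 21.3, 8.16, 7.65 and 6.56 CPM in the vehicle, 17.9, 21.5, 30.7 and 20.8 in the CD40 mAb and 19.8, 36.2, 9.74, 20.7 and 20.1 in the ATOR-4066 libraries. In Rsad2 the vehicle animal 1 lay inside the CD40 mAb range, and the change was 1.06 (SE 0.42, adjusted p = 0.167).

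Oasl2 levels with vehicle were 53.5, 25.6, 27.8 and 21.5 CPM, those with CD40 mAb 65.6, 86.8, 90.7 and 57.9, and those with ATOR-4066 33.8, 76.3, 34.5, 28.1 and 45.7. Oasl2 changed by 1.23 (SE 0.35, adjusted p = 0.0901), and all 6 OAS genes lay within 1.21 to 1.39. With vehicle Mx1 was at 24.7, 16.9, 18.9 and 16.3 CPM, with CD40 mAb at 28.9, 34.3, 36.9 and 30.1 and with ATOR-4066 at 32.4, 50.9, 21.2, 33.8 and 32.8. Unlike in blood, the Mx1 estimate was of the size of the others, at 0.76 (SE 0.22, adjusted p = 0.088), with no overlap. Zbp1 stood at 94.7, 82.5, 80.6 and 65.3 CPM in the vehicle, 159, 238, 187 and 122 in the CD40 mAb and 101, 290.4, 129, 84.5 and 127 in the ATOR-4066 libraries. Zbp1 did not overlap either and changed by 1.13 (SE 0.35, adjusted p = 0.103).

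Stat2 levels with vehicle were 95.7, 92.9, 88.5 and 76.3 CPM, those with CD40 mAb 117, 168, 135 and 114, and those with ATOR-4066 84.1, 173, 121, 92.95 and 107. The CD40 mAb libraries of Stat2 were all above vehicle, by 0.60 (SE 0.20, adjusted p = 0.117). With vehicle Trim30a was at 129.9, 105, 115 and 116 CPM, with CD40 mAb at 202, 234, 223 and 194 and with ATOR-4066 at 112, 231, 167, 135 and 174. Trim30a was likewise separated, by 0.88 (SE 0.17, adjusted p = 0.054). Bst2 stood at 119.7, 110, 86.4 and 94.2 CPM in the vehicle, 207, 170.1, 209.6 and 144 in the CD40 mAb and 108, 181, 95.1, 119.6 and 138 in the ATOR-4066 libraries. Bst2 was separated by 0.83 (SE 0.19, adjusted p = 0.0566). Ifitm3 and Ifi27l2a overlapped with vehicle, at 0.58 (SE 0.22, adjusted p = 0.15) and 0.93 (SE 0.29, adjusted p = 0.107), and the CD40 mAb animal 2 was highest for Ifi27l2a with 799 CPM.

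For ATOR-4066 in lymph node, 0 members were called in edgeR, where 0% of all genes tested were called. Unadjusted, 28 members had p under 0.05, all upward (15.8% of all genes tested, 6.27% upward), and DESeq2 called 14 (3.06%). All 39 estimates were positive, with a median of 0.55 (all genes tested, -0.01). The 5 animals differed: the mean over the members was 1.17 in animal 2, 0.69 in animal 5 and 0.31 to 0.34 in animals 1, 3 and 4. The members of smallest p were Usp18 (0.75, adjusted p = 0.222), Cmpk2 (0.76, adjusted p = 0.222), Mx1 (0.83, adjusted p = 0.222) and Adar (0.41, adjusted p = 0.222). Between the drugs, 0 members were called in lymph node, where 0.0161% of all genes tested were called. DESeq2 called 2 (1.04% of all genes), and 13 had an unadjusted p under 0.05, all downward (9.32% of all genes, 5.77% downward). The median was -0.34 for ATOR-4066 minus CD40 mAb. With the left-out vehicle library put back, the medians against vehicle moved to 0.13 for CD40 mAb and -0.18 for ATOR-4066. Proliferation markers lay at a summed level of 621 to 967 CPM in vehicle, 1215 to 1868 in CD40 mAb and 832 to 1335 in ATOR-4066 lymph node, with 0 of 12 called. The 12 macrophage markers summed to 2428 to 3191 CPM in vehicle, 1237 to 2332 in CD40 mAb and 1458 to 2529 in ATOR-4066, and the 12 monocyte markers to 1512 to 1669, 1831 to 2193 and 1767 to 2193 CPM, with none called in either list. No gene of these 3 lists was at 0 in every library, and their part in the estimates was not tested.

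In whole tumor, no member was called in any comparison. For ATOR-4066 against vehicle, 1.32% of all genes tested were called and DESeq2 called 0 members (13.3% of all genes). Unadjusted, 2 members had p under 0.05 in edgeR, both upward (24.7% of all genes, 12.3% upward). For CD40 mAb against vehicle, 0% of all genes tested were called, 0 members had an unadjusted p under 0.05 (11.9% of all genes) and DESeq2 called 0 (0.177%). Between the drugs, 0.0325% of all genes tested were called and DESeq2 called 0 members (1.84% of all genes). Unadjusted, 16 members had p under 0.05, all upward (10.2% of all genes, 4.63% upward). The medians against vehicle were 0.53 for ATOR-4066 and -0.37 for CD40 mAb, beside 0.02 and 0.07 over all genes tested, and between the drugs the median was 0.78 beside -0.07. Without the tumor of ATOR-4066 animal 4 the median between the drugs was 0.12, and without that of CD40 mAb animal 1 the CD40 mAb median was -0.19.

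Single animals stood far from the rest of their groups. The 4 vehicle tumors kept the mean over the members within -0.08 to 0.07, whereas ATOR-4066 gave -0.55, -0.26, 0.0003 and 1.62, the last from animal 4. In the tumor of ATOR-4066 animal 4 all 39 members lay above every vehicle tumor, and without it the median for ATOR-4066 was -0.19. At the other end, CD40 mAb animal 1 had 38 of 39 members below every vehicle tumor, with a mean of -1.43. The share of all genes outside the vehicle range in these single tumors is not given, so both counts have no baseline here.

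Rsad2 levels with vehicle were 160, 149, 171 and 139.1 CPM, those with CD40 mAb 38.2, 148, 150, 142 and 68.3, and those with ATOR-4066 170.4, 134, 1464 and 191. Rsad2 of ATOR-4066 animal 4 was thus far above every other tumor, and the change for ATOR-4066 was 1.66 (SE 0.71, adjusted p = 0.168). With vehicle Irf7 was at 445, 338, 408 and 365 CPM, with CD40 mAb at 194, 438, 449, 247 and 403 and with ATOR-4066 at 450.3, 388, 1904 and 524. Irf7 showed the same single high library, with 1.07 (SE 0.46, adjusted p = 0.176). Mx1 stood at 67.4, 64.7, 72.8 and 54.95 CPM in the vehicle, 15.3, 67.03, 57.98, 27.9 and 26.2 in the CD40 mAb and 30.1, 27.96, 327 and 53.2 in the ATOR-4066 libraries. For Mx1 the other 3 ATOR-4066 tumors were below all vehicle tumors while animal 4 was the highest of the 13.

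Isg15 levels with vehicle were 199.8, 171, 233 and 224 CPM, those with CD40 mAb 43.5, 241, 210.3, 104 and 90.05, and those with ATOR-4066 134, 88.6, 784 and 252. Isg15 of CD40 mAb animals 1, 4 and 5 lay below the vehicle range. With vehicle Ifit1 was at 204, 174, 199.5 and 185 CPM, with CD40 mAb at 39.5, 197, 190.4, 133 and 65.8 and with ATOR-4066 at 119.6, 88.8, 666 and 195. Ifit1 repeated that order, lowest in CD40 mAb animal 1 and highest in ATOR-4066 animal 4. Ifit3 stood at 286, 248, 286 and 263 CPM in the vehicle, 54.9, 278, 275, 138 and 109 in the CD40 mAb and 169.9, 99.7, 1329 and 317 in the ATOR-4066 libraries. So did Ifit3.

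Oasl2 levels with vehicle were 394, 370, 412 and 408 CPM, those with CD40 mAb 115, 471, 401, 281 and 229, and those with ATOR-4066 297, 229.9, 814 and 343. Oasl2 was below vehicle in 3 of 5 CD40 mAb and 3 of 4 ATOR-4066 tumors. With vehicle Stat2 was at 220, 238, 211 and 188 CPM, with CD40 mAb at 85.2, 207, 204, 175 and 146 and with ATOR-4066 at 226, 181, 589 and 192. Stat2 was lowest in CD40 mAb animal 1 and highest in ATOR-4066 animal 4. Usp18 stood at 83.6, 68.1, 77.8 and 79.98 CPM in the vehicle, 20.7, 82.5, 81.7, 57.8 and 45.9 in the CD40 mAb and 61.3, 46.4, 365 and 95.3 in the ATOR-4066 libraries. Usp18 had its lowest value in CD40 mAb animal 1.

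Zbp1 levels with vehicle were 294, 297, 273 and 289.7 CPM, those with CD40 mAb 92.7, 310.1, 274, 168 and 206, and those with ATOR-4066 294, 195, 666 and 309. Zbp1 was below vehicle in 3 of 5 CD40 mAb tumors. With vehicle Trim30a was at 197, 173, 185 and 174 CPM, with CD40 mAb at 72.2, 205, 197, 127 and 149 and with ATOR-4066 at 159.7, 137, 421 and 147. Trim30a of ATOR-4066 animal 4 again stood alone. Bst2 stood at 361, 345, 371 and 409.8 CPM in the vehicle, 189, 443, 403, 268 and 293 in the CD40 mAb and 389, 240.3, 992 and 512 in the ATOR-4066 libraries. Bst2 was above the vehicle range in 2 of 4 ATOR-4066 and 1 of 5 CD40 mAb tumors. Ifitm3 and Ifi27l2a of ATOR-4066 animal 4 reached 1362 and 644 CPM, and Ifi27l2a was the only member with a positive estimate for CD40 mAb in tumor, 0.52 (SE 0.45, adjusted p = 0.573).

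Leukocyte content varied between these tumors. Ptprc was at 107 CPM in CD40 mAb animal 1 and 430.2 CPM in ATOR-4066 animal 4, against 176 to 294 CPM in vehicle. CD40 mAb animal 5 had 589 CPM of Ptprc and a mean over the members of -0.50. The 12 macrophage markers summed to 4892 to 7078 CPM in vehicle, 3070 to 17510 in CD40 mAb and 3661 to 6519 in ATOR-4066 tumors. Of these, 0 of 12 were called against vehicle for either drug and none was at 0. Fibroblast markers summed to 10890 to 15290, 8058 to 13050 and 4785 to 10000 CPM in the same order. Proliferation markers summed to 1804 to 2169, 502 to 1943 and 739 to 1325 CPM. Both lists were lower in every ATOR-4066 tumor than in vehicle. Erythroid markers were at 49.3 to 140.8 CPM in vehicle and 157.6 to 1118 CPM in CD40 mAb tumors. The part of these lists in the members' values, also those of single animals, was not tested.

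**Figure D3:**
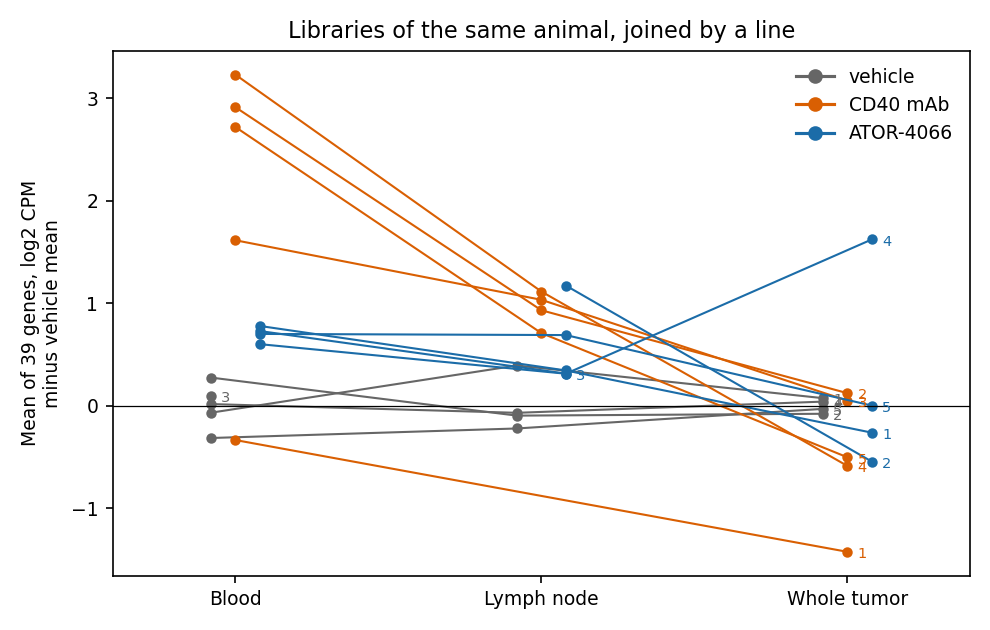
The vertical axis is the mean over the 39 genes of log2 CPM minus the vehicle mean of the material, and lines join the libraries of 1 animal, whose number stands at the last point. The CD40 mAb animals fall from blood to lymph node to tumor, and ATOR-4066 animal 4 is at 0.60, 0.31 and 1.62 in blood, lymph node and tumor.

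CD40 mAb animal 1 was the lowest of its group in both blood (-0.34) and tumor (-1.43), and no lymph node library of it was analysed here. CD40 mAb animal 4, the highest in blood (3.23) and lymph node (1.11), was at -0.59 in tumor. ATOR-4066 animal 2, the highest of its group in lymph node (1.17), was the lowest in tumor (-0.55).

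The tests of a difference between materials used a fit of all 50 libraries with the animal as a block (voomLmFit). For CD40 mAb, 9 members had a smaller effect in lymph node than in blood, where 15% of all genes tested were called lower. They are Isg15 (-3.07), Isg20 (-1.72), Herc6 (-2.35), Rsad2 (-2.28), Ifit1 (-2.24), Oasl2 (-1.94), Usp18 (-3.08), Irf7 (-1.78) and Ifitm3 (-1.80). In this fit the members' median was -0.35 beside -0.28 over all genes tested. In edgeR, with no block and no sample weights, 15 members were called lower, where 7.31% of all genes tested were, and the medians were -1.22 and 0.04. Without blood CD40 mAb animal 1, 19 members were called, and the share of all genes called in that fit is not given. For ATOR-4066 no member differed between lymph node and blood, where 0.883% of all genes tested were called, 1 had an unadjusted p under 0.05, the edgeR alternative called 0 and the fit without blood CD40 mAb animal 1 called 1.

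Tumor and lymph node differed for 5 members under CD40 mAb, all lower in tumor, where 3.84% of all genes tested were called lower. They are Eif2ak2 (-1.31), Dhx58 (-1.42), Parp14 (-1.25), Mx2 (-1.93) and Mx1 (-1.75). Without the tumor of CD40 mAb animal 1 there were 0 (median -1.17 against -1.46), without the blood of that animal 15 and without the tumor of ATOR-4066 animal 4 there were 9, and edgeR called 0. Shares of all genes called are not given for these alternatives. For ATOR-4066, 0 members differed between tumor and lymph node, where 8.47% of all genes tested were called, 0 had an unadjusted p under 0.05, edgeR called 0 and the fit without the tumor of ATOR-4066 animal 4 called 1.

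In the sorted tumor leukocytes, ATOR-4066 lowered part of the set. Of the 39 members, 18 were called lower than vehicle and 0 higher, where 5.11% of all genes tested were called lower. All 39 estimates were negative, with a median of -1.27 (all genes tested, -0.02), and 32 members lay below every vehicle library in all 3 ATOR-4066 libraries, where 14.1% of all genes did so. The sorted cells came from animals other than those of the whole tumors. The ATOR-4066 animals 9, 6 and 10 had a mean over the members of -2.45, -1.50 and -0.63.

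Mx1 had the lowest estimate of the 39. Mx1 levels with vehicle were 455, 334, 536 and 564 CPM, those with CD40 mAb 82.6, 216 and 137, and those with ATOR-4066 82.4, 46.6 and 132. Mx1 of every treated library was below every vehicle library, and with ATOR-4066 the gene fell by 2.44 (SE 0.41, adjusted p = 0.0108), a 5.43-fold drop. Mx2 fell by 1.79 (SE 0.50, adjusted p = 0.0458). With vehicle Rsad2 was at 327, 254, 311 and 259 CPM, with CD40 mAb at 83.1, 298 and 157 and with ATOR-4066 at 218, 42.97 and 404. Rsad2 changed by -0.38 (SE 0.61, adjusted p = 0.731) and was not called, with animal 10 above all vehicle libraries and animal 9 far below.

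Of the 3 transcription factors Stat2 was called and Irf7 and Irf9 were not. Stat2 stood at 741, 562, 832 and 818 CPM in the vehicle, 217, 529 and 359 in the CD40 mAb and 191, 122 and 403 in the ATOR-4066 libraries. Stat2 fell with ATOR-4066, where it dropped by 1.63 (SE 0.42, adjusted p = 0.0345), with no overlap with vehicle. Irf7 levels with vehicle were 1824, 1343, 1702 and 1549 CPM, those with CD40 mAb 719.7, 1878 and 1167, and those with ATOR-4066 518, 186 and 1174. Irf7 changed by -1.36 (SE 0.53, adjusted p = 0.121), without overlap, the spread among the 3 treated libraries being wide. Irf9 changed by -0.42 (SE 0.16, adjusted p = 0.113).

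With vehicle Usp18 was at 279.6, 219, 261 and 238 CPM, with CD40 mAb at 78.2, 229 and 132 and with ATOR-4066 at 71.1, 36.3 and 137. Usp18 fell by 1.62 (SE 0.45, adjusted p = 0.0441) and Herc6 by 1.27 (adjusted p = 0.0241). Isg15 stood at 429, 294, 432 and 276 CPM in the vehicle, 109, 292 and 201 in the CD40 mAb and 128, 47.99 and 269 in the ATOR-4066 libraries. Isg15 itself changed by -1.27 (SE 0.52, adjusted p = 0.137) and was not called, though the groups did not overlap. Of the OAS family 3 of 6 were called, and Oas2 fell by 2.30 (SE 0.54, adjusted p = 0.0249). Oasl2 levels with vehicle were 800.2, 644, 822 and 878 CPM, those with CD40 mAb 335, 743 and 578, and those with ATOR-4066 236, 61.7 and 509.8. Oasl2 changed by -1.55 (SE 0.56, adjusted p = 0.1), also without overlap.

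No IFIT gene was called, with estimates from -2.18 to -1.20 and adjusted p from 0.055 to 0.0964. With vehicle Ifit1 was at 242, 221, 259 and 194 CPM, with CD40 mAb at 67.8, 218 and 132 and with ATOR-4066 at 80.3, 53.8 and 166. Every ATOR-4066 library was below the vehicle range for Ifit1. Ifit3 stood at 767, 579, 761 and 651 CPM in the vehicle, 104, 498 and 260.4 in the CD40 mAb and 129, 54.02 and 312 in the ATOR-4066 libraries. The same held for Ifit3. Of the sensors 4 of 5 were called, namely Dhx58 and Ifih1, which recognise double-stranded RNA, Eif2ak2, the RNA-activated kinase PKR, and Zbp1. Zbp1 levels with vehicle were 636, 562, 695 and 654 CPM, those with CD40 mAb 293, 549.5 and 424, and those with ATOR-4066 227, 202 and 459. Zbp1 fell by 1.10 (SE 0.30, adjusted p = 0.0403), with no overlap.

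Among the nucleic acid enzymes Adar was called, with a fall by 0.77 (adjusted p = 0.0353). Neither membrane effector was. With vehicle Ifitm3 was at 996, 858, 871 and 833 CPM, with CD40 mAb at 776, 1129 and 1414 and with ATOR-4066 at 425, 112 and 717. Ifitm3 changed by -1.09 (SE 0.48, adjusted p = 0.165), and its CD40 mAb libraries reached above vehicle. Bst2 stood at 394, 238, 406 and 269 CPM in the vehicle, 189.7, 444 and 280.4 in the CD40 mAb and 139.1, 84.6 and 297 in the ATOR-4066 libraries. Bst2 overlapped with vehicle, at -0.91 (SE 0.43, adjusted p = 0.191). Of the other induced genes 5 of 8 were called. Ifi44 fell by 1.90 (SE 0.55, adjusted p = 0.04998). Trim30a levels with vehicle were 489, 411, 450.1 and 465 CPM, those with CD40 mAb 260.3, 465 and 321, and those with ATOR-4066 196, 169 and 332. Trim30a fell by 0.97 (SE 0.26, adjusted p = 0.0381). With vehicle Ifi27l2a was at 486, 336, 593 and 533 CPM, with CD40 mAb at 253, 325 and 390.5 and with ATOR-4066 at 173, 90.7 and 405. Ifi27l2a overlapped and was not called, at -1.13 (SE 0.43, adjusted p = 0.115).

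The count in sorted cells rests on few libraries. It was 2 without vehicle animal 10 or ATOR-4066 animal 6, 3 without vehicle animal 6 or 9, 12 without vehicle animal 7, 8 without ATOR-4066 animal 9 and 37 without ATOR-4066 animal 10, and DESeq2 called 32, where it called 21.3% of all genes. With the replicate block, whose numbers name different animals in each treatment, 5 members were called. Shares of all genes called are not given for the block or the fits without 1 library. The median stayed between -1.79 and -0.96 when 1 library was left out.

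Cell markers moved with the ATOR-4066 group. T cell markers were called higher for 14 of 15 genes (summed level 1096 to 1637 CPM in vehicle and 3059 to 6766 in ATOR-4066), proliferation markers for 12 of 12 (286 to 517 and 645 to 1502 CPM). Macrophage markers were called lower for 4 of 12 (6436 to 8898 and 589 to 3326 CPM), and plasmacytoid dendritic cell markers lower for 3 and higher for 1 of 11 (536 to 678 and 296 to 325 CPM). Monocyte markers were called lower for 2 and higher for 1 of 12 (6992 to 8252 and 3392 to 6205 CPM), and fibroblast markers lower for 2 and higher for 1 of 9 (359 to 622 and 766 to 1702 CPM). The B cell markers of ATOR-4066 animal 9 summed to 544 CPM against 27.5 to 38.9 CPM in vehicle, and the erythroid markers of animal 6 to 5871 CPM against 72.0 to 358 CPM. None of the genes of these lists that are in the table was at 0 in every sorted library, and their part in the fall was not tested.

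**Figure D4:**
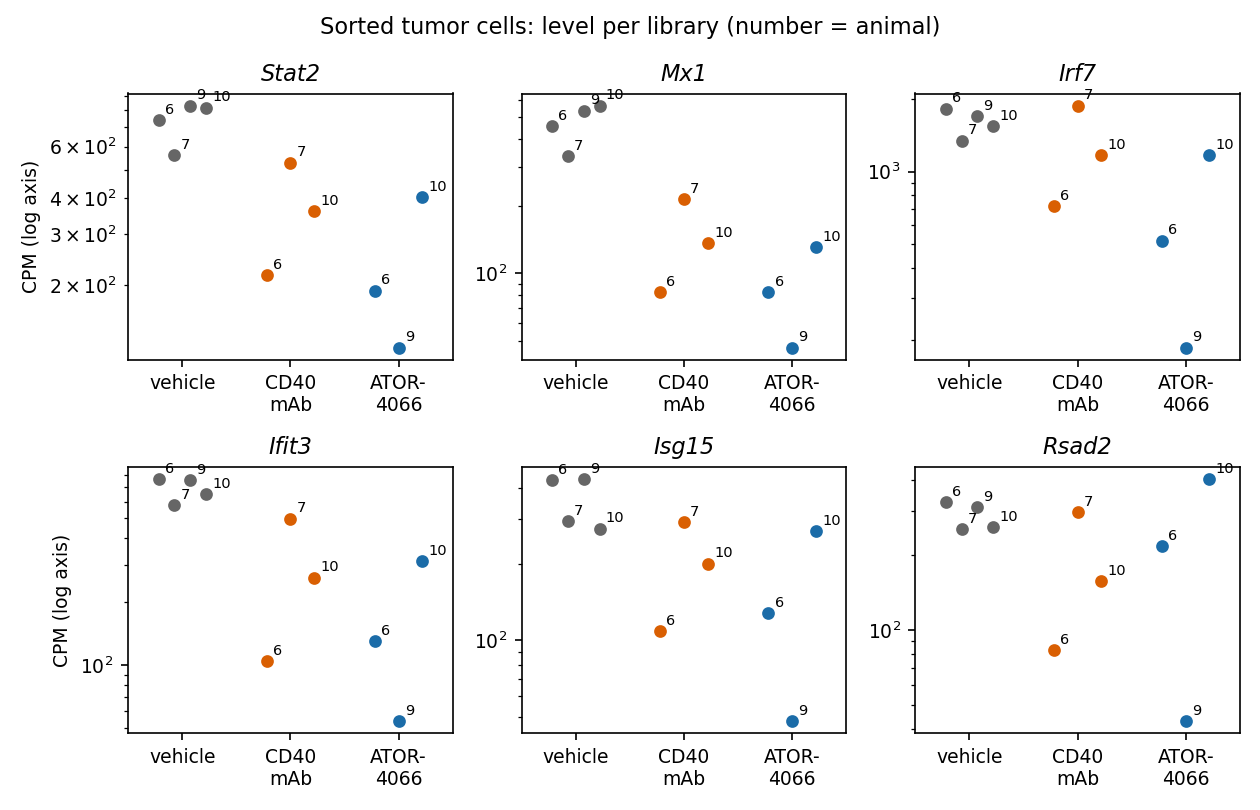
The vertical axis is the level in CPM on a log axis in the libraries of sorted CD45+Ly6G- tumor cells, with the animal number beside each point. Stat2, Mx1, Irf7, Ifit3 and Isg15 of the 3 ATOR-4066 libraries lie below all 4 vehicle libraries, and Rsad2 of ATOR-4066 animal 10 lies above them.

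CD40 mAb in the sorted cells gave 0 called members, where 1.09% of all genes tested were called. Unadjusted, 11 members had p under 0.05 in edgeR, all downward (19% of all genes tested, 10.3% downward), and DESeq2 called 4 (9.2% of all genes). The estimates were negative for 38 of 39, with a median of -0.59 (all genes tested, -0.02), which was -0.35 without CD40 mAb animal 6, and 15 members lay below every vehicle library in all 3 libraries, where 11.6% of all genes did so. The members of smallest p were Mx1 (-1.70, adjusted p = 0.0686), Isg20 (-1.22, adjusted p = 0.114), Mx2 (-1.55, adjusted p = 0.133) and Herc6 (-0.88, adjusted p = 0.142). Animal 6 had all 39 members below every vehicle library, and the share of all genes below vehicle in that library is not given. Conventional dendritic cell markers summed to 1197 to 1625 CPM in CD40 mAb against 809 to 869 CPM in vehicle sorted cells. Macrophage markers (4801 to 17560 against 6436 to 8898 CPM) and T cell markers (504 to 1141 against 1096 to 1637 CPM) overlapped, as did the other lists. The part of these lists in the estimates was not tested. Between the drugs 0 members were called in the sorted cells, where 8.23% of all genes tested were called, 9 had an unadjusted p under 0.05 and DESeq2 called 7. Over all genes these shares in either direction were 27.1% and 18.2%, close to those of the members. All 9 members were lower with ATOR-4066, where 12.5% of all genes had such a p downward. The median was -0.70 for ATOR-4066 minus CD40 mAb, from -1.26 without ATOR-4066 animal 10, when 20 members were called, to -0.37 without CD40 mAb animal 7. The share of all genes called without ATOR-4066 animal 10 is not given, so the count of 20 has no baseline here.

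The ATOR-4066 effect was lower in sorted cells than in whole tumor for 10 members, where 5.14% of all genes tested were called lower. They are Stat2 (-2.06), Mx2 (-2.42), Slfn5 (-2.20), Mx1 (-2.46), Ifit2 (-2.37), Dhx58 (-1.69), Trex1 (-1.47), Oas1g (-2.34), Oas2 (-2.38) and Oasl1 (-2.54). The median over the members was -1.69 (all genes tested, -0.06). Without the tumor of ATOR-4066 animal 4 the count was 4, and without the sorted library of ATOR-4066 animal 9 it was 0. Without the blood of CD40 mAb animal 1, which is in the same fit, it was 16. Shares of all genes called are not given for these fits without 1 library. The CD40 mAb effect differed between sorted cells and tumor for 0 members, where 0.402% of all genes tested were called, 0 had an unadjusted p under 0.05 and edgeR called 0.

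**Figure D5:**
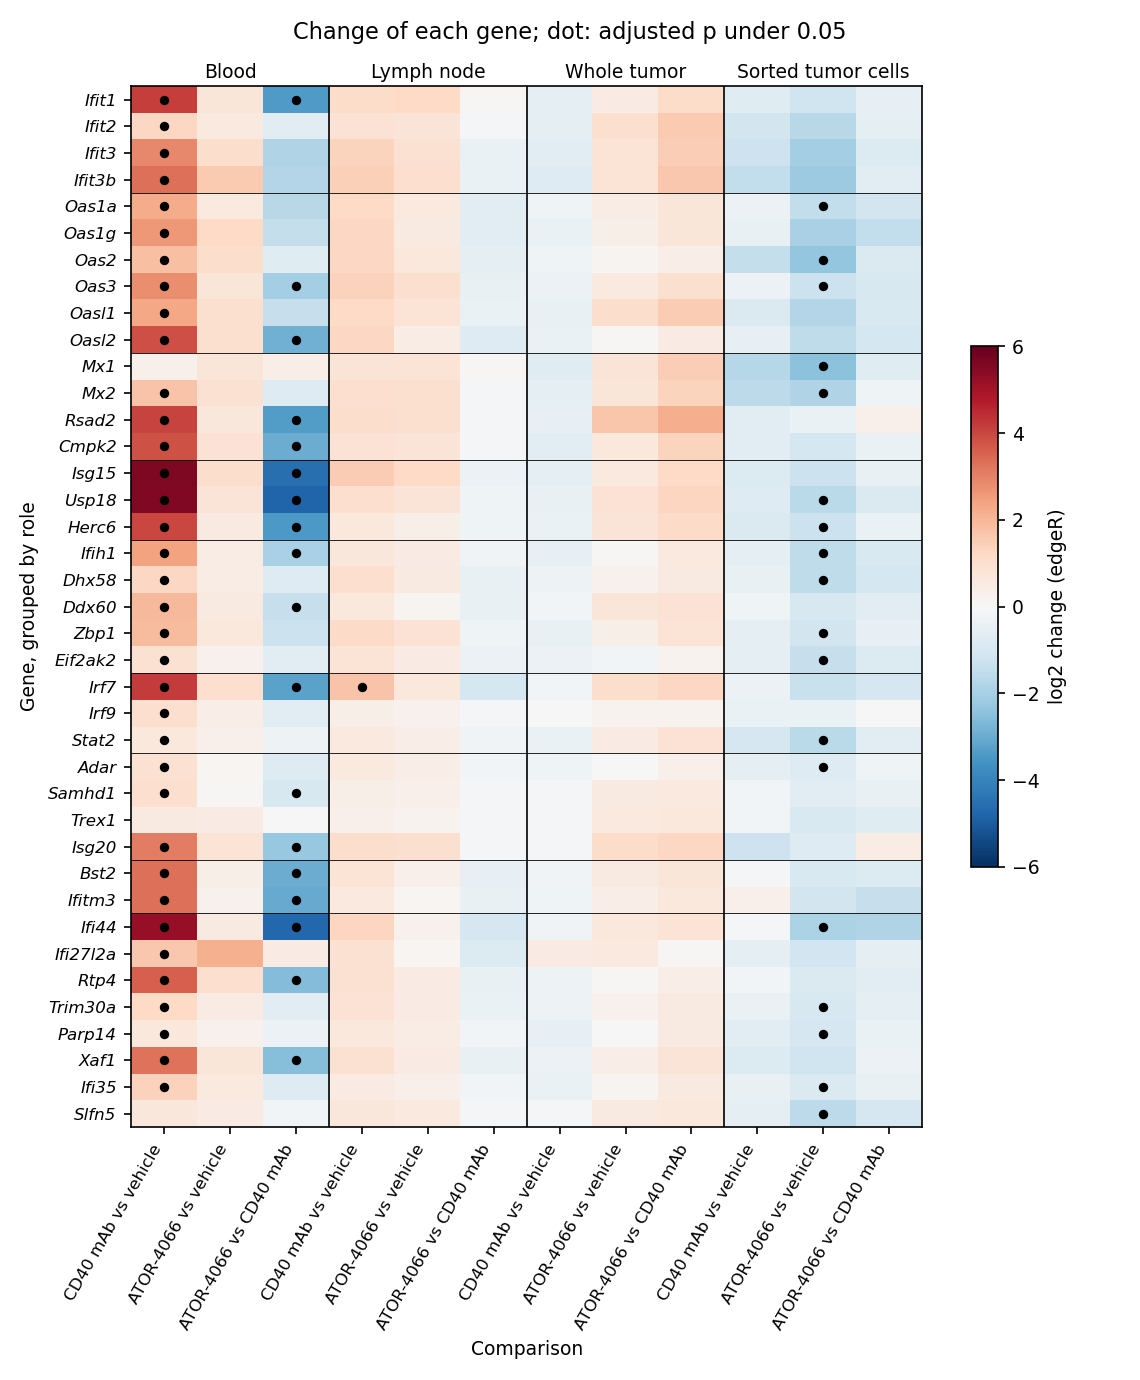
Rows are the 39 genes grouped by role and columns the 12 comparisons, the color is the log2 change and a dot marks an adjusted p under 0.05. The dots fill 36 of 39 rows for CD40 mAb in blood, 18 for ATOR-4066 against CD40 mAb in blood, 18 for ATOR-4066 in sorted cells and 1 in lymph node.

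The rest of the pathway was read from lists of genes that are not members. Of 21 interferon ligand genes, none passed the count filter in blood and 19 were at 0 in all 14 blood libraries. Ifnb1, the interferon beta gene, was at 0 counts in every blood library and had 77 counts in the tumor of ATOR-4066 animal 4, against 0 to 13 in the other 12 tumors. In lymph node it had 0 to 6 counts and in sorted cells 0 to 9. No interferon alpha gene of the list had more than 4 counts in any library used, so their changes were not detectable at this depth. Ifnz, a further ligand gene of the list, had counts in 22 libraries, with at most 45 in tumor, 8 in lymph node, 4 in sorted cells and 0 in blood. Ifng, the interferon gamma gene, rose in sorted ATOR-4066 cells by 1.48 (SE 0.38, adjusted p = 0.0356) over vehicle and by 2.05 (SE 0.43, adjusted p = 0.0248) over CD40 mAb, in contrast to the direction of the members there.

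Counts of these lists in CD40 mAb blood stand beside 22.2% of all genes tested called higher and 12.4% called lower, and those in sorted ATOR-4066 cells beside 6.76% higher and 5.11% lower. Among 11 receptor and JAK-STAT genes, 6 were called higher and 1 lower with CD40 mAb in blood. Ifnar2, a chain of the receptor, rose by 2.66 (SE 0.44, adjusted p = 0.000466). Ifnar1, the other chain, changed by -0.17 (SE 0.10, adjusted p = 0.208) and was not called. In sorted ATOR-4066 cells 1 of the 11 was called, Ifnlr1, a receptor chain of interferon lambda, at -2.20 (SE 0.57, adjusted p = 0.035).

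The sensors and adaptors outside the set (18 of 21 tested) were called lower for 5 and higher for 3 with CD40 mAb in blood, with Mavs, the adaptor of the RNA sensors, up by 1.95 (SE 0.30, adjusted p = 0.00026) and Sting1, the adaptor of the DNA sensor, changed by -0.57 (SE 0.13, adjusted p = 0.00266). In sorted ATOR-4066 cells 4 were called lower and 1 higher, with Cgas, the DNA sensor, at -1.51 (SE 0.19, adjusted p = 0.00494) and Rigi, an RNA sensor, at -0.90 (SE 0.20, adjusted p = 0.0216). Of 13 genes that damp the pathway, Socs1 rose in CD40 mAb blood by 1.18 (SE 0.29, adjusted p = 0.00487). Tnfaip3 fell in ATOR-4066 blood, by 0.77 (adjusted p = 0.0149), and rose in sorted ATOR-4066 cells by 2.32 (SE 0.39, adjusted p = 0.0108). In whole tumor Socs3 rose with ATOR-4066 by 1.04 (SE 0.15, adjusted p = 0.0277).

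Of 54 other interferon-stimulated genes tested, 34 were called higher and 0 lower with CD40 mAb in blood, with a median of 0.89. Ube2l6, the conjugating enzyme of ISG15, rose by 2.65 (SE 0.39, adjusted p = 0.000123). In sorted ATOR-4066 cells 20 were called lower and 1 higher, with a median of -0.96, beside 0 called in whole tumor with either drug. Of 17 interferon-gamma-induced genes tested in blood, 13 were called higher with CD40 mAb and 2 lower (median 1.58). Igtp, a GTPase of vacuole defense, rose by 3.11 (SE 0.50, adjusted p = 0.000326). In sorted ATOR-4066 cells 1 of 20 was called higher, Nos2, the inducible nitric oxide synthase (3.69 (SE 0.68, adjusted p = 0.0123)), and 1 lower, Ciita, the activator of MHC class II genes (-1.001 (SE 0.28, adjusted p = 0.0442)). The chemokine genes Cxcl9 and Cxcl10 were not called in any comparison in which they were tested. In sorted cells with ATOR-4066 both had estimates below vehicle, at -1.52 and -1.52 with an adjusted p of 0.12 and 0.12.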

How the data were processed

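RNA was measured in 52 libraries, of which 50 were used. The deposited table holds expected counts per gene, estimated by salmon by its name, and these are not scaled for depth or length. Reads were processed with STAR (given as version 5.1) on GRCm38, per the submitters' processing notes, and the annotation is not given in the sources used here. Per the labels' protocols, polyA RNA went into a stranded library kit. Of the deposited cells 11% hold fractional counts, which were rounded to whole numbers. No column was left unmapped.

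One edgeR fit (version 4.0.16, R 4.3.3) per material held all 3 treatments (filterByExpr with a count minimum of 10 and a total of 15, TMM scaling, quasi-likelihood F test, Benjamini-Hochberg adjustment over all genes tested). Every adjusted p in the text comes from it, unless a difference between materials is named, which was tested with voomLmFit of edgeR and limma 3.58.1 with the animal as a block. The scripts were tested on simulated data. DESeq2 1.42.0, other scaling, no filter, the replicate block, fits of 2 groups and each library left out were alternatives. Means over the members use log2 CPM with a prior count of 2. The smallest total, 30.2 M counts, and the haemoglobin share in blood limit the precision of low genes.

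Members and lists were chosen with earlier results of these data known. Named genes were 14 fixed members in every material, the 5 called members of largest change in each direction whose average log2 CPM was not under 0, and the 4 of smallest p where fewer than 3 were called. From the lists they were called genes of smallest p and a fixed set of ligand, receptor and chemokine genes, of which a part is given. Treatment and material were taken from the labels. Animals differ between treatments, and nothing says whether cages, days or runs were shared, so p-values measure the spread between these libraries. Coordinates and exon lengths are from GENCODE vM21 and promoters from RefSeq, both on GRCm38. Promoter windows of the other 9 members and protein sequences were not used here.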

Additional observations from a re-analysis of the deposited data

Results flagged for a closer look

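A library far from the others of its group (Dixon's test, which chance passes in about 1 of 20 groups) was found in 13 of 150 groups of values tested, over the mean of the members and 14 members. In whole tumor, ATOR-4066 animal 4 was apart for 7 of the 14: Mx1 at 327 CPM where the rest of the group had 28.0 to 53.2, Rsad2 at 1464 against 134 to 191, Irf7 at 1904 against 388 to 524, Stat2 at 589 against 181 to 226, Usp18 at 365 against 46.4 to 95.3, Ifi27l2a at 644 against 135 to 218, and Trim30a at 421 against 137 to 159.7. In lymph node, vehicle animal 1 was apart for Ifit1 (35.6 CPM against 15.5 to 18.8), Rsad2 (21.3 against 6.56 to 8.16) and Usp18 (37.7 against 28.9 to 30.2). ATOR-4066 animal 2 was apart in lymph node for Isg15 (120.3 CPM against 32.1 to 49.6) and Zbp1 (290.4 against 84.5 to 129). In blood, vehicle animal 2 was apart for Ifi27l2a (15.5 CPM against 8.65 to 10.2).

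A drug effect differed between materials, by the test of the difference in the fit of all libraries, for these of the 14 members. The ATOR-4066 effect was lower in sorted cells than in tumor for Mx1 (-2.46 on the log2 scale) and Stat2 (-2.06). The CD40 mAb effect was lower in tumor than in lymph node for Mx1 (-1.75). It was lower in lymph node than in blood for Isg15 (-3.07), Ifit1 (-2.24), Rsad2 (-2.28), Oasl2 (-1.94), Irf7 (-1.78), Usp18 (-3.08) and Ifitm3 (-1.80). Over all genes tested, 5.14% were called lower for sorted minus tumor, 3.84% for tumor minus lymph node and 15% for lymph node minus blood. These calls changed with the fit. The first contrast gave 0 members without sorted ATOR-4066 animal 9. The second gave 0 in edgeR, and the last gave 2 with no sample weights.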

How the results depend on the processing

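Counts of called members against vehicle and between drugs depended on the fit. DESeq2 called 32 in sorted cells and 14 in lymph node for ATOR-4066 against vehicle and 1 in blood, 4 in sorted cells and 35 in lymph node for CD40 mAb against vehicle, and 7 in sorted cells and 2 in lymph node for ATOR-4066 against CD40 mAb. Fits of the 2 groups alone called 3 for CD40 mAb in sorted cells, 30 for CD40 mAb in lymph node and 26 for ATOR-4066 in blood. With no filter on low counts, 8 were called for ATOR-4066 in sorted cells and 8 for CD40 mAb in lymph node. With the left-out library put back, 0 were called for CD40 mAb in lymph node. With 1 library left out in turn, counts for ATOR-4066 against vehicle ranged from 2 to 37 in sorted cells and 0 to 1 in blood, counts for CD40 mAb in lymph node from 0 to 1, and counts for ATOR-4066 against CD40 mAb from 0 to 20 in sorted cells and 11 to 34 in blood. Where no share of all genes called is given above for a fit, its count has no baseline here. The cause of these shifts was not tested.

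Replicate numbers name different animals in each treatment. The replicate block called 5 members for ATOR-4066 in sorted cells, 0 for CD40 mAb in lymph node, and 0 for ATOR-4066 against CD40 mAb in blood, and 34 for CD40 mAb in blood. Same-numbered libraries of different treatments did not deviate together: their correlations were over 0.1 in 1 of 8 pairs in sorted cells, 2 of 12 in tumor, 4 of 11 in lymph node and 2 of 13 in blood, and 3 of 10, 1 of 13, 0 of 13 and 3 of 14 libraries correlated best with their own number.

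Tests of a difference between materials moved too. For ATOR-4066 in sorted cells minus tumor they gave 18 members with no sample weights, 21 with edgeR, 4 with the 2 left-out libraries and from 0 to 16 over 6 fits without 1 library. For CD40 mAb in tumor minus lymph node they gave 0 with edgeR, 0 with the left-out libraries and from 0 to 15 without 1 library. For CD40 mAb in lymph node minus blood they gave 2 with no weights, 15 with edgeR and from 8 to 19 without 1 library. For ATOR-4066 in tumor minus lymph node and in lymph node minus blood the range was 0 to 1. The fits without 1 library were chosen after seeing the data. Shares of all genes called are not given for these alternatives, except edgeR for CD40 mAb in lymph node minus blood. Of 484 values of called members under alternatives, 410 kept direction and call, 74 kept direction only and 0 reversed. Most alternatives reuse nearly all libraries of the main fit, so the lack of reversals is not an independent check. Of 169 medians 2 changed sign, in lymph node and tumor for ATOR-4066, both given above.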
